A study of Mus musculus with 6 samples.

Results

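Interferon induced genes were followed in the liver of B6.C3H-6T mice and C57BL/6J mice. The set is a list of 47 genes, 35 of them typical of the type I interferon response, 8 GTPase genes typical of the type II response, and 4 other genes that respond strongly to type II interferon. A gene entered when the platform annotation paired a probe set with that gene alone, and of several such probe sets the one with the highest average signal across the 6 arrays stood for the gene. This gave 44 members out of 18193 genes measured in the same way: 33 of the type I class, 7 GTPases and 4 others. Isg15, Ifi44 and Tgtp1 had no probe set paired with them alone in the annotation used here and were not analysed. The members, and the marker lists used below, were listed by gene name with earlier results of these data known. Counts over them beside all genes are therefore descriptions and not tests.

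The study compared 3 female B6.C3H-6T mice with 3 female C57BL/6J mice, all 8 weeks old and fed chow, with the liver RNA of 1 mouse on each Affymetrix array. The p-values measure the spread between these mice. B6.C3H-6T is a congenic strain that carries a stretch of chromosome 6 from the C3H strain on the C57BL/6J background, and the series title gives it low serum IGF-1. Where that stretch begins and ends is not given in the labels. No infection and no interferon treatment is named in the labels. The 6 arrays had median log2 values of 6.07 to 6.11, and correlations between arrays over all probe sets ran from 0.9935 to 0.9968. The medians were slightly higher in B6.C3H-6T, at 6.097 to 6.114, than in C57BL/6J, at 6.075 to 6.094, without overlap. The hepatocyte marker Alb, the gene of serum albumin, lay between 14.50 and 14.56 on every array, where the highest value measured was 14.56.

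Type I interferons signal through the receptor pair Ifnar1 and Ifnar2 and the kinases Jak1 and Tyk2. A complex that holds Stat2 and Irf9 then enters the nucleus and binds the interferon-stimulated response element (ISRE). Type II interferon, or interferon gamma, signals through Ifngr1 and Ifngr2 with Jak1 and Jak2, and acts on its target genes through the gamma-activated site (GAS). Many genes answer to both, so the classes are a matter of degree. The immunity-related GTPases (Igtp, Irgm1, Irgm2, Iigp1, Ifi47) and the guanylate-binding proteins (Gbp2, Gbp3) act on the vacuoles in which intracellular parasites and bacteria live. Both hepatocytes and the Kupffer cells, which are the resident macrophages of liver, respond to interferons.

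Promoter stretches of members are shown first, since these elements are the ones through which interferons are known to act on genes. Windows from 250 bases before to 50 bases after each gene's start were read from RefSeq sequences of assembly GRCm38.p6, which is the C57BL/6J genome, and 34 of the 44 members had at least 1 window. The letters GAAA, any 2 bases and GAAA again were searched on both strands as an ISRE-like match (TTTC, any 2 bases and TTTC on the other strand), and TTCNNNGAA, which reads the same on both strands, as a GAS-like match. Each stretch below runs 5′ to 3′ along the gene's own strand with every matched letter in capitals, and none lies on chromosome 6. The first 5 are GTPase genes, followed by a type II transcription factor gene and a chemokine gene, and then by 3 genes of the type I class that had the lowest, an intermediate and a higher signal in B6.C3H-6T.
Igtp, chr11:58199496-58199546, plus strand: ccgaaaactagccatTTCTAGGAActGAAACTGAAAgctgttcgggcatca
Irgm2, chr11:58214887-58214937, plus strand: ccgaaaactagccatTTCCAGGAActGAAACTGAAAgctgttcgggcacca
Irgm1, chr11:48871420-48871465, minus strand: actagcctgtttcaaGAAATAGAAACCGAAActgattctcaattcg
Gbp2, chr3:142620589-142620628, plus strand: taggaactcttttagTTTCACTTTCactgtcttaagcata
Gbp3, chr3:142559984-142560029, plus strand: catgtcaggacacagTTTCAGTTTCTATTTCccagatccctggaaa
Irf1, chr11:53769909-53769947, plus strand: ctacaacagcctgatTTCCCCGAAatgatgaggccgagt
Cxcl10, chr5:92349078-92349117, minus strand: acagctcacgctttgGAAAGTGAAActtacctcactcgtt
Ifit2, chr19:34550444-34550476, plus strand: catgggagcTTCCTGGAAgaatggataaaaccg
Ifit1, chr19:34640770-34640828, plus strand: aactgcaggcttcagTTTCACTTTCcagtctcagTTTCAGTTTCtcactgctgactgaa
Bst2, chr8:71537572-71537623, minus strand: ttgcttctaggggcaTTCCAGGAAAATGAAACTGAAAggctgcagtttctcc

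Igtp and Irgm2 are next to each other among the protein-coding genes of chromosome 11, and their printed stretches were the same at 49 of 51 bases. In both, a GAS-like match stands just before an ISRE-like match. The matches of the Gbp2 and Gbp3 promoters start 59 and 45 bases before the gene's start. In Gbp3, Irgm1 and Bst2, 2 ISRE-like matches overlap, and in Bst2 the GAS-like match overlaps the first of them as well. An ISRE-like match was found in 18 of 41 member windows (43.9%), against 1131 of 32851 windows of all genes (3.44%). A GAS-like match was found in 10 of the 41 (24.4%), against 8.3% of all windows. Among the GTPase genes 5 of 7 windows (71.4%) held an ISRE-like match and 2 (28.6%) a GAS-like match, against 12 (42.9%) and 6 (21.4%) of 28 windows of the type I class. The classes were assigned by name and not by these matches. The 17 members with an ISRE-like match and the 17 without had the same median difference between the strains, -0.14 on the log2 scale. A match only says that these letters occur in the window.

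No member passed the test between the strains. With limma and Benjamini-Hochberg adjustment over all genes, 0 of the 44 members had an adjusted p under 0.05, the lowest being 0.196 for Samd9l, and 13 of all 18193 genes (0.0715%) passed. At an unadjusted p under 0.05 there were 14 members (31.8%), against 12.1% of all genes. Of these, 13 were lower in B6.C3H-6T and 1 was higher, whereas all genes divided into 5.79% lower and 6.34% higher. After quantile normalization of the arrays the division of members was 10 lower and 3 higher (29.5% together, against 11.5% of all genes). With the arrays centred on their medians it was 17 lower and 0 higher (38.6%, against 11.8% of all genes). The strains did not overlap at 17 members, 13 of them lower and 4 higher, where 17.8% of all genes did not overlap (7.49% lower and 10.3% higher). In all, 34 members had a lower mean in B6.C3H-6T and 10 a higher one, and the median difference was -0.13, against 0.02 for all genes. The differences are small. They ran from -0.45 for Gbp2 to 0.21 for Usp18, B6.C3H-6T minus C57BL/6J, as they do throughout.

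**Figure D1:**
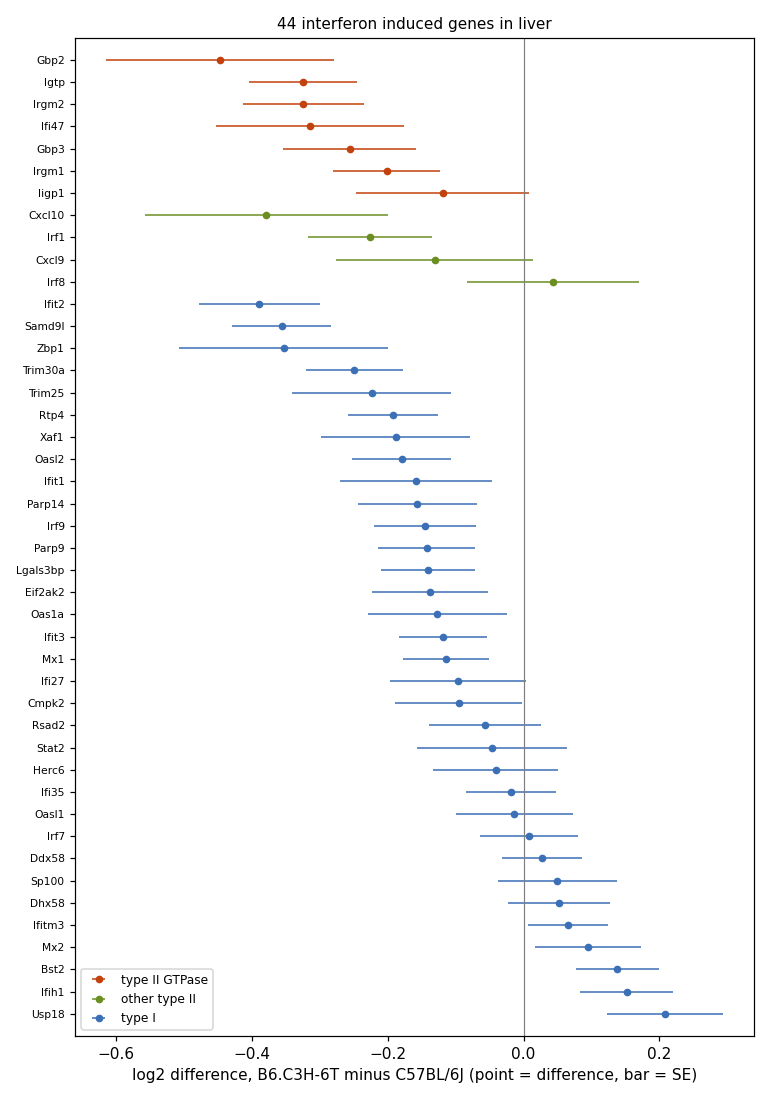
The log2 difference of each of the 44 members (B6.C3H-6T minus C57BL/6J, 3 mice per strain) is drawn as a point with its SE as a bar, by class and in order of size. All 7 GTPase members lie left of 0, while the type I members run from -0.39 for Ifit2 to 0.21 for Usp18.

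The GTPase class had the lowest values in B6.C3H-6T relative to C57BL/6J. All 7 measured members had a lower mean, with a median difference of -0.31, and 6 of the 7 had an unadjusted p under 0.05, all lower, where 5.79% of all genes were lower at that level. Igtp, a regulatory immunity-related GTPase, had log2 values of 9.82, 9.88 and 10.03 in B6.C3H-6T livers, against 10.33, 10.16 and 10.22 in C57BL/6J livers. Every B6.C3H-6T liver lay below every C57BL/6J liver, and the difference was -0.33 ± 0.08 (SE), or 1.25-fold (limma adjusted p = 0.232). Its neighbour Irgm2, of the same regulatory group, had 9.58, 9.32 and 9.52 in B6.C3H-6T livers, against 9.91, 9.81 and 9.68 in C57BL/6J livers. These did not overlap either (-0.32 ± 0.09, adjusted p = 0.271). Gbp2, a guanylate-binding protein gene, had 7.62, 7.06 and 7.63 in B6.C3H-6T livers, against 8.15, 7.67 and 7.82 in C57BL/6J livers. The gap between the groups was narrow and replicate 2 of B6.C3H-6T was well below the others, so that the difference of -0.45 ± 0.17 had an adjusted p of 0.36.

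Gbp3 had 7.84, 7.60 and 8.0 in B6.C3H-6T livers, against 8.01, 8.10 and 8.11 in C57BL/6J livers. The third B6.C3H-6T liver almost met the lowest C57BL/6J liver, and the difference was -0.26 ± 0.10 (adjusted p = 0.37). Irgm1, the third regulatory GTPase, had 8.43, 8.39 and 8.58 in B6.C3H-6T livers, against 8.77, 8.57 and 8.66 in C57BL/6J livers, which overlapped by a hair. Ifi47, an effector GTPase, had 9.55, 8.96 and 9.39 in B6.C3H-6T livers, against 9.53, 9.75 and 9.57 in C57BL/6J livers, with overlap at the first B6.C3H-6T liver. Iigp1, the best studied effector of the family, had 12.16, 11.68 and 12.02 in B6.C3H-6T livers, against 11.92, 12.23 and 12.07 in C57BL/6J livers. Its strains overlapped widely, its difference was the smallest of the class at -0.12 ± 0.13, and it was 0.02 without B6.C3H-6T replicate 2. A second probe set of Gbp2 differed by -0.48 ± 0.15 and a second one of Iigp1 by -0.16 ± 0.09.

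**Figure D2:**
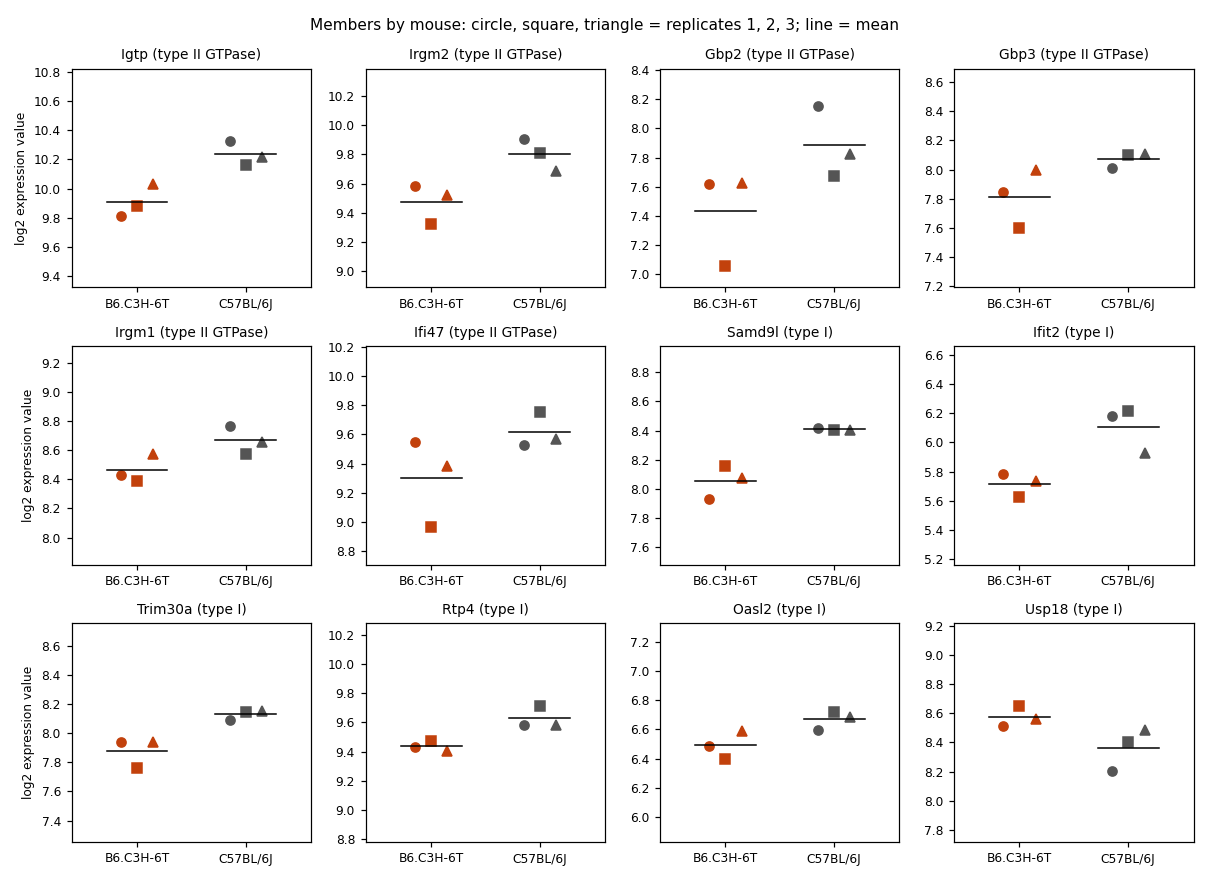
Each panel gives the log2 expression value of 1 gene in every mouse, with B6.C3H-6T at the left and C57BL/6J at the right, a line at the group mean and the same span of log2 units on every axis. B6.C3H-6T replicate 2, the square, is the lowest of the 6 mice for the GTPase genes Irgm2, Gbp2, Gbp3, Irgm1 and Ifi47. The same mouse is the lowest for the type I genes Ifit2, Trim30a and Oasl2. Usp18 is the one gene shown with higher values in B6.C3H-6T.

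The size of the GTPase difference depended on 1 mouse. B6.C3H-6T replicate 2 was the lowest of all 6 mice for 6 of the 7 GTPase members, and for 21 of all 44 members. The mean over the GTPase members was 9.29, 8.99 and 9.31 in the B6.C3H-6T livers, against 9.52, 9.47 and 9.45 in the C57BL/6J livers. The groups did not overlap, and the other B6.C3H-6T mice lay 0.14 or more below the lowest C57BL/6J mouse. Without replicate 2 of B6.C3H-6T the median of the class was -0.16 in place of -0.31, and 6 of the 44 members had an unadjusted p under 0.05 (13.6%), all lower, against 7.27% of all genes in that fit (3.36% lower). Gbp2 then differed by -0.26 and Gbp3 by -0.15. Without C57BL/6J replicate 3 the count was 9 members (20.5%), against 8.88% of all genes.

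Markers of Kupffer cells and macrophages were also lower on average in B6.C3H-6T. All 8 markers (Adgre1, Clec4f, Cd68, Csf1r, Marco, Vsig4, Timd4, Cd5l) had a lower mean in B6.C3H-6T, with a median of -0.28. Of these, 7 had an unadjusted p under 0.05, against 5.79% of all genes lower at that level, and 0 passed over all genes in limma. Timd4, a receptor of resident macrophages, had 7.43, 7.05 and 7.45 in B6.C3H-6T livers, against 7.72, 7.86 and 7.75 in C57BL/6J livers. The list mean was 9.17, 8.93 and 9.16 in B6.C3H-6T livers, against 9.28, 9.56 and 9.42 in C57BL/6J livers. Replicate 2 of B6.C3H-6T was the lowest mouse here as well, while among C57BL/6J mice replicate 1 was the lowest here and the highest for the GTPase mean. That low place of C57BL/6J replicate 1 rests largely on Marco, which differed most in the list (-0.65 ± 0.23). Marco had 7.12, 7.13 and 6.98 in B6.C3H-6T livers, against 7.09, 7.89 and 8.19 in C57BL/6J livers, with overlap. The list means did not overlap between the strains. The median was -0.19 without B6.C3H-6T replicate 2, as it also was without C57BL/6J replicate 2. The part of these cells in the GTPase result was not tested. In whole liver, fewer cells of a type and less RNA per cell cannot be told apart. The hepatocyte markers leaned the other way. All 6 were higher in B6.C3H-6T, where 10197 of all 18193 genes were higher, and the median of the markers was 0.05. Their list mean was 13.57, 13.63 and 13.57 in B6.C3H-6T livers, against 13.45, 13.48 and 13.42 in C57BL/6J livers, without overlap. Tat, an enzyme of tyrosine breakdown, differed by 0.42 and Cps1, an enzyme of the urea cycle, by 0.26. Both had an unadjusted p under 0.05, where 6.34% of all genes were higher at that level, and neither passed over all genes in limma. The other markers differed by less, at 0.02 for Alb, 0.02 for Apoa1, 0.025 for Hnf4a and 0.08 for Ttr. Alb, Apoa1 and Ttr had values of 14.19 to 14.56, at the top of the values measured. Whether a difference can still show at that level was not tested. As measured, the gap in the list mean rests mostly on Tat and Cps1. The part of this list in the results was not tested. In the remaining lists the median was -0.06 over 5 sinusoidal endothelium markers, -0.00 over 7 T and NK cell markers, -0.20 over 4 B and plasma cell markers, 0.02 over 4 neutrophil markers, 0.02 over 4 plasmacytoid dendritic cell markers and -0.07 over 2 red blood cell markers. The neutrophil markers were split, with 2 lower and 2 higher, from -0.18 for S100a9 to 0.23 for Ngp. The red blood cell marker Hba-a1 had values of 4.17 to 4.43, below the lower quartile of every array (4.86 to 4.90), so that list rests mainly on Alas2.

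**Figure D3:**
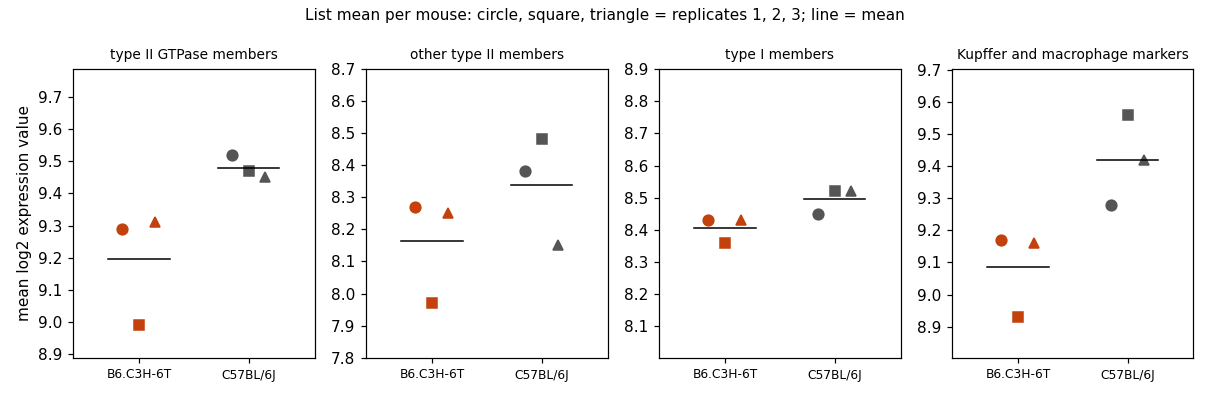
The mean log2 expression value over each list is drawn for every mouse, B6.C3H-6T at the left and C57BL/6J at the right, with a line at the group mean and the same span on every axis. The GTPase members (8.99 to 9.31 in B6.C3H-6T, 9.45 to 9.52 in C57BL/6J) and the Kupffer and macrophage markers (8.93 to 9.17 and 9.28 to 9.56) do not overlap between the strains, and replicate 2 of B6.C3H-6T is lowest in all 4 panels.

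The type I class was lower by less. Of 33 members 24 had a lower and 9 a higher mean, with a median of -0.11, and 6 were lower and 1 higher at an unadjusted p under 0.05 (21.2% together, against 12.1% of all genes). The class mean was 8.43, 8.36 and 8.43 in B6.C3H-6T livers, against 8.45, 8.52 and 8.52 in C57BL/6J livers, so the strains were separated by 0.02. The median of the GTPase class was 0.20 below that of the type I class, a difference of -0.20 that came to -0.08 without B6.C3H-6T replicate 2. The difference between the classes was not tested, since it is a score over chosen members. The GTPase members ran from -0.45 to -0.12 and the type I members from -0.39 to 0.21.

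**Figure D4:**
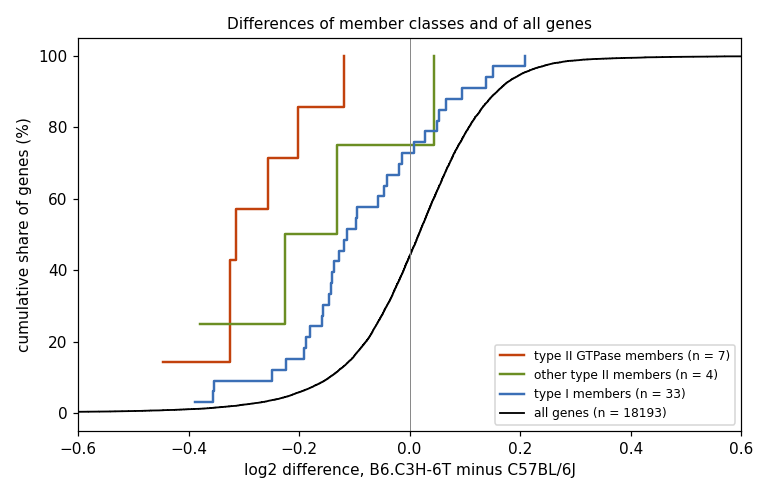
The cumulative share of genes (%) is drawn against the log2 difference, B6.C3H-6T minus C57BL/6J, for the 3 member classes and for all 18193 genes. The GTPase curve ends at -0.12, left of 0, the type I curve has its median at -0.11, and the curve of all genes has its median at 0.02.

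The strongest member by p was Samd9l, whose product blocks protein synthesis in virus-infected cells, and it lies on chromosome 6. It had 7.93, 8.16 and 8.08 in B6.C3H-6T livers, against 8.42, 8.40 and 8.40 in C57BL/6J livers. The C57BL/6J livers were almost identical and every B6.C3H-6T liver lay below them, with a difference of -0.36 ± 0.07 (limma adjusted p = 0.196). Usp18, the protease that removes Isg15 from proteins and restrains the type I receptor, also lies on chromosome 6. It was the member with the largest higher value, at 8.51, 8.65 and 8.56 in B6.C3H-6T livers, against 8.20, 8.40 and 8.49 in C57BL/6J livers. These did not overlap, and the difference was 0.21 ± 0.08 (adjusted p = 0.388). Herc6, the mouse ligase that attaches Isg15, is the other chromosome 6 member, with 8.59, 8.62 and 8.79 in B6.C3H-6T livers, against 8.54, 8.77 and 8.81 in C57BL/6J livers. Its strains overlapped, at -0.04 ± 0.09, but its 3 other probe sets differed by -0.24 ± 0.13, -0.32 ± 0.09 and -0.29 ± 0.13. A sequence difference between the C3H and C57BL/6J alleles under a probe can alter its signal, and this was not tested for these genes. Without the 3 genes of chromosome 6, the other 41 members had a median of -0.14, with 32 lower and 9 higher.

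Of the effectors that act on RNA and translation, all 10 measured genes had a lower mean in B6.C3H-6T (median -0.13), where 43.9% of all genes were lower. Samd9l, Ifit2 and Oasl2, 3 of the 10, had an unadjusted p under 0.05, against 12.1% of all genes. Ifit2, which binds foreign RNA in the cytosol, had 5.79, 5.63 and 5.74 in B6.C3H-6T livers, against 6.18, 6.21 and 5.93 in C57BL/6J livers. All B6.C3H-6T values lay below all C57BL/6J values, and the difference of -0.39 ± 0.09 was the lowest in the type I class (adjusted p = 0.221). The Ifit2 probe set is dim, with strain means of 5.72 and 6.11 beside array medians of 6.07 to 6.11. The filter for brighter probe sets left it out. Oasl2, a protein of the oligoadenylate synthetase family, had 6.49, 6.40 and 6.59 in B6.C3H-6T livers, against 6.60, 6.72 and 6.69 in C57BL/6J livers. The groups were separated by a narrow gap, at -0.18 ± 0.07. The relatives Ifit1 (-0.16 ± 0.11) and Ifit3 (-0.12 ± 0.07), the kinase gene Eif2ak2 (-0.14 ± 0.08), which halts translation when it meets double-stranded RNA, and Oas1a (-0.13 ± 0.10) had smaller differences. Those of Cmpk2 (-0.10 ± 0.09), Rsad2 (-0.06 ± 0.08), which encodes viperin, and Oasl1 (-0.01 ± 0.09) were near their errors or below them. The further probe sets of Rsad2 did not give the same size of difference. A dimmer one differed by -0.23 ± 0.08 without overlap (limma adjusted p over all probe sets = 0.393). Another differed by -0.04 ± 0.07, with overlap.

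Among membrane effectors the directions were mixed. Rtp4, a chaperone of receptor transport that interferons induce, had 9.43, 9.47 and 9.40 in B6.C3H-6T livers, against 9.58, 9.71 and 9.58 in C57BL/6J livers, without overlap (-0.19 ± 0.07, adjusted p = 0.333). A second, dimmer probe set of Rtp4 differed by -0.03 ± 0.06. Bst2, or tetherin, which holds budding virus particles at the cell surface, had 10.33, 10.33 and 10.34 in B6.C3H-6T livers, against 10.24, 10.21 and 10.14 in C57BL/6J livers. The B6.C3H-6T livers were tightly grouped above the others, at 0.14 ± 0.06 (adjusted p = 0.413). Ifitm3, which blocks the fusion of viruses in endosomes, differed by 0.07 ± 0.06 and did not overlap. The dynamin-like genes Mx1 and Mx2 differed by -0.11 ± 0.06 and 0.09 ± 0.08. Mx1 had values of 4.60 to 4.69 in B6.C3H-6T livers and 4.72 to 4.82 in C57BL/6J livers, below the lower quartile of every array (4.86 to 4.90), so its level is close to the dim end of the arrays.

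The sensors of foreign nucleic acids did not share a direction. Zbp1, a sensor of Z-form nucleic acid, had 7.13, 6.62 and 7.25 in B6.C3H-6T livers, against 7.27, 7.26 and 7.53 in C57BL/6J livers. It did not overlap by a hair and its low mean rests largely on replicate 2 of B6.C3H-6T, since -0.35 ± 0.15 became -0.16 without that mouse. A second probe set of Zbp1 differed by -0.10 ± 0.09, with overlap. Ifih1, which encodes the RNA sensor MDA5, had 9.37, 9.31 and 9.25 in B6.C3H-6T livers, against 9.11, 9.24 and 9.12 in C57BL/6J livers (0.15 ± 0.07, adjusted p = 0.419). Its values were higher in B6.C3H-6T with a narrow gap. Ddx58, the gene of RIG-I, and Dhx58, the gene of LGP2, differed by 0.03 ± 0.06 and 0.05 ± 0.08, and Trim25, the ubiquitin ligase that acts with RIG-I, by -0.22 ± 0.12. Further probe sets differed by 0.22 ± 0.08 and 0.03 ± 0.10 for Ddx58 and by 0.04 ± 0.09 and -0.11 ± 0.08 for Dhx58. Those of Trim25 differed by -0.15 ± 0.10 and -0.06 ± 0.14. Of the remaining type I members, Trim30a, a TRIM protein of macrophages, had 7.94, 7.76 and 7.94 in B6.C3H-6T livers, against 8.09, 8.15 and 8.15 in C57BL/6J livers. The groups did not overlap (-0.25 ± 0.07, adjusted p = 0.28), and a second probe set of Trim30a differed by -0.31 ± 0.09. Lgals3bp, Parp9, Parp14 and Xaf1 differed by -0.14 ± 0.07, -0.14 ± 0.07, -0.16 ± 0.09 and -0.19 ± 0.11. Ifi27 (-0.10 ± 0.10), Ifi35 (-0.02 ± 0.07) and the nuclear body gene Sp100 (0.05 ± 0.09) had differences no larger than their errors. Further probe sets of Ifi35 differed by -0.14 ± 0.07 and -0.02 ± 0.06.

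The transcription factors of the response differed little. Irf7, the factor that amplifies type I interferon production and is itself strongly induced by it, had 9.11, 8.95 and 8.92 in B6.C3H-6T livers, against 8.94, 9.0 and 9.02 in C57BL/6J livers, a difference of 0.01 ± 0.07. Stat2 had 8.77, 8.84 and 9.14 in B6.C3H-6T livers, against 8.84, 9.12 and 8.92 in C57BL/6J livers (-0.05 ± 0.11). Irf9, its partner in the ISRE-binding complex, had 8.15, 8.09 and 8.31 in B6.C3H-6T livers, against 8.37, 8.27 and 8.35 in C57BL/6J livers (-0.15 ± 0.08). The strains overlapped at all of these. Irf1, the early factor of the interferon gamma response, had 9.64, 9.37 and 9.47 in B6.C3H-6T livers, against 9.72, 9.84 and 9.59 in C57BL/6J livers. Its difference of -0.23 ± 0.09 (adjusted p = 0.385) was the lowest of the 5 factors, with overlap between 1 mouse of each strain. Irf8, a factor of macrophages and dendritic cells, had 7.60, 7.66 and 7.40 in B6.C3H-6T livers, against 7.60, 7.72 and 7.22 in C57BL/6J livers, and differed by 0.04 ± 0.13. The signs of Irf7, Irf8 and Stat2 turned under some settings, such as centring of the arrays for Irf7.

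The chemokine genes Cxcl9 and Cxcl10, whose products draw T cells to sites of interferon gamma release, belong to the other type II genes. Cxcl10 had 6.98, 6.38 and 7.08 in B6.C3H-6T livers, against 7.07, 7.45 and 7.05 in C57BL/6J livers. The second B6.C3H-6T liver stood well below the rest and the second C57BL/6J liver above them. The difference of -0.38 ± 0.18 (adjusted p = 0.439) became -0.16 without B6.C3H-6T replicate 2 and -0.25 without C57BL/6J replicate 2. Cxcl9 had 8.86, 8.48 and 9.05 in B6.C3H-6T livers, against 9.12, 8.92 and 8.75 in C57BL/6J livers, which overlapped (-0.13 ± 0.14).

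Of the other genes of the pathway, 41 of 43 listed were analysed here. As a group they showed no lean, with 21 lower, 20 higher and a median of -0.00. None passed over all genes in limma, and at an unadjusted p under 0.05 there were 3 lower and 1 higher, or 9.76%, against 12.1% of all genes, so their share was no larger than the background. Those 4 genes are given as values only. The receptor chain Ifngr2, which passes on the interferon gamma signal, had 8.18, 7.85 and 8.02 in B6.C3H-6T livers, against 8.25, 8.37 and 8.36 in C57BL/6J livers. These did not overlap, with a difference of -0.31 ± 0.09 (adjusted p = 0.28). Myd88, the adaptor of most Toll-like receptors, differed by -0.23 ± 0.075 (adjusted p = 0.313), and Tlr3, the receptor of double-stranded RNA, by -0.26 ± 0.10 (adjusted p = 0.383). Ifna1, a type I interferon gene, differed by 0.23 ± 0.09 (adjusted p = 0.362), at values of 6.45 to 6.86, not far above the array medians (6.07 to 6.11). Its probe set is of the _x_at type, which an alternative setting left out, and what else it reads was not tested. The remaining receptor genes Ifnar1 (-0.05 ± 0.07), Ifnar2 (-0.135 ± 0.10) and Ifngr1 (-0.04 ± 0.07) had small differences. So did the kinase genes Jak1 (0.01 ± 0.09), Jak2 (0.01 ± 0.08) and Tyk2 (-0.06 ± 0.09), and the feedback inhibitor gene Socs1 (0.08 ± 0.07). The interferon gamma gene Ifng had 4.61, 4.43 and 4.33 in B6.C3H-6T livers, against 4.44, 4.40 and 4.31 in C57BL/6J livers, which is below the lower quartile of every array.

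Where a member had further probe sets of its own, most leaned the same way. Of 28 other probe sets of 20 members, 25 had the sign of the representing one. At an unadjusted p under 0.05 there were 5, where 12.1% of all genes had such a p, and 0 passed adjusted over all probe sets. Those 5 were lower for Gbp2, Herc6, Rsad2 and Trim30a and higher for Ddx58. Probe sets of the same gene read the same mice, so a shared sign is not separate evidence. The exceptions in sign belonged to Dhx58, Irf8 and Sp100. Sp100 differed by 0.05 ± 0.09 in the probe set that represented it and by -0.19 ± 0.10 in the other. Of the 44 members 33 kept their sign under all alternative settings run for them, and 0 passed the threshold under any.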

How the data were processed

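Liver RNA of 3 B6.C3H-6T and 3 C57BL/6J mice was measured on Affymetrix arrays, 1 mouse each, with images quantified in GCOS 1.2 per the labels. The deposited values are log2 expression values made by the authors with RMA from affy, per the submitters' processing notes. Their versions and any later step are not given in the sources used here. Values ran from 3.14 to 14.56, and the number of arrays limits the precision. Of 45101 probe sets 64 controls were left out, 34945 of the other 45037 were paired with 1 gene, 932 with several and 9160 with none. Symbols were updated through the gene identifier to RefSeq (GRCm38.p6).

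The test between strains used limma 3.58.1 under R 4.3.3, fitted with lmFit and eBayes to all 45037 probe sets without covariates or filter, and p-values of 1 probe set per gene were adjusted by Benjamini-Hochberg over 18193 genes at 0.05. The code was tested on simulated data. Values of every mouse are given for the 6 type I and 4 GTPase members of smallest p, the chromosome 6 members and the transcription factors, and for others chosen after their values were seen. The members and lists were chosen with earlier results of these data known. Alternatives were other probe set choices, scalings, filters, variance models and each mouse left out. Scanner files were not used here, so background correction was not varied, and no scan date or batch was given.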

Additional observations from a re-analysis of the deposited data

How the results depend on the processing

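The count of members past the threshold was 0 under every alternative run, and the medians of all members (-0.17 to -0.09 without 1 mouse), of the type I class (-0.13 to -0.07) and of the GTPase class (-0.35 to -0.16) stayed below 0. The GTPase minus type I difference ran from -0.26 to -0.08 without 1 mouse. The GTPase median of -0.16 and the class difference of -0.08 came without B6.C3H-6T replicate 2, and the type I median of -0.07 without C57BL/6J replicate 3. The count of members at an unadjusted p under 0.05 ran from 6 to 15 without 1 mouse. The 6 (13.6%, against 7.27% of all genes) came without B6.C3H-6T replicate 2. The 15 (34.1%, against 10.8% of all genes) came without B6.C3H-6T replicate 1. The count over all genes ran from 6 to 15 without 1 mouse and was 0 without moderated variances. There limma's linear fit gave 10 members at an unadjusted p under 0.05 (22.7%, with 7 lower and 3 higher), against 9.6% of all genes. Of the 44 members 11 changed sign under at least 1 alternative: Oasl1, Sp100 (down to -0.19), Dhx58, Ifi27, Iigp1, Cxcl9 and Ifi35, and among the genes tracked singly Irf8 (-0.04 with the mean of all probe sets, -0.12 with the probe set of median p, -0.10 without C57BL/6J replicate 3, -0.01 without B6.C3H-6T replicate 2, and -0.10 to 0.15 over the mice left out), Irf7 (-0.02 after centring of the arrays, -0.01 without C57BL/6J replicate 1, -0.05 without B6.C3H-6T replicate 1, and -0.05 to 0.04 over the mice left out), Stat2 (0.03 without B6.C3H-6T replicate 1, 0.03 also when C57BL/6J replicate 2 was left out) and Herc6 (0.01 without C57BL/6J replicate 3), and the cause was not tested. No paired analysis was possible because the labels give each mouse a number of its own. The Kupffer list without each mouse was added after seeing the data (median -0.33 to -0.19).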
